A study of Mus musculus with 4 samples.

Results

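The genes that make, break down, export and sense sphingosine 1-phosphate (S1P) were examined in livers of mice with and without a deletion of HuR (gene symbol Elavl1), an RNA binding protein that controls the stability and translation of many mRNAs. The members were chosen by symbol: the receptors S1pr1, S1pr2, S1pr3 and S1pr5, the sphingosine kinases Sphk1 and Sphk2, the S1P lyase Sgpl1, the S1P phosphatase Sgpp1 and the S1P transporter Spns2. These were 9 of the 46603 genes counted. All mice were male by their sample labels, while the paper states that its in vivo studies used both sexes. They were HuRflox/flox mice on the C57BL/6J background that were fed a Western diet with 42% of its energy from fat and 0.1% cholesterol, together with drinking water holding 23.1 g/L fructose and 18.9 g/L glucose, for 4 weeks. The 2 control mice (mice 1 and 2) had received AAV8-TBGP-GFP by tail vein, and the 2 mice labelled HuRhKO (mice 3 and 4) had received AAV8-TBGP-Cre. The floxed allele, the diet and a viral injection were therefore common to both groups, and the vectors differed in the protein they encode and in their supplier. The thyroxine-binding globulin promoter restricts Cre to hepatocytes, so that endothelial, stellate and immune cells of the liver keep the floxed gene, and their RNA is in the same bulk library. The ages of these mice are not given in the sources used here.

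S1P is a signaling sphingolipid. It is formed when a sphingosine kinase phosphorylates sphingosine, itself released from ceramide, and it is removed either by a phosphatase, which returns sphingosine to ceramide synthesis, or by the lyase, which cleaves it for good. Exported S1P is carried in blood by apolipoprotein M and albumin and acts on a family of G protein-coupled receptors. In the liver, conjugated bile acids also activate S1PR2 on hepatocytes, and SphK2, which acts in the nucleus and mitochondria, has been tied to hepatic lipid metabolism, which is why this receptor and this kinase are set beside the rest of the pathway here.

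The upstream sequences of S1pr2 and Sphk2 are given because these are the receptor and the kinase that the study follows. Both were taken from RefSeq (GRCm38.p6), as the 250 bases before an annotated start, read 5′ to 3′ on the minus strand, on which both genes lie. Windows were found for 8 of the 9 members, and none was found for S1pr1. The S1pr2 window is chr9:20976794-20977043 and holds 0 bases of an annotated exon. The Sphk2 window is chr7:45715208-45715457, before an inner start of the gene, and holds 1 such base. A second Sphk2 window, before the outer start, was not printed because 233 of its 250 bases lie in annotated exons. Capitals mark matches, on either strand, to the cAMP response element TGACGTCA, the E-box CACGTG, the GC box GGGCGG, the CCAAT box (CCAAT) and the TATA box (TATAAA).
S1pr2: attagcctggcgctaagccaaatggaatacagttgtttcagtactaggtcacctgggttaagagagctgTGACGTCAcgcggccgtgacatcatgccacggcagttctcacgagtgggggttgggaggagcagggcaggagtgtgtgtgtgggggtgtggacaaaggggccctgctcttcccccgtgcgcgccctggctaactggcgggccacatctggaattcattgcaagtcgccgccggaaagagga
Sphk2: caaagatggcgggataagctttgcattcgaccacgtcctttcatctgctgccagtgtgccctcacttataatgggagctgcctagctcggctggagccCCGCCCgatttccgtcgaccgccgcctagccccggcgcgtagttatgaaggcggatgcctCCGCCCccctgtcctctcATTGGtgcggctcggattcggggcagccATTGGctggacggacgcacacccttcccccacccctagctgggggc
The S1pr2 window held 1 match to the cAMP response element, 181 bases before the start, and 0 matches to the other motifs. Among 32851 RefSeq windows of the same length, 1.55% held that element. The Sphk2 window held 2 matches to the GC box and 2 to the CCAAT box, which 32.7% and 33.8% of the windows held. The matches of these motifs do not overlap. A match describes the letters of a window and is not evidence that a factor binds there.

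The libraries held between 13032095 and 19715577 counts on genes, with the largest library, that of mouse 4, at 1.51 times the smallest, and between 17908 and 18911 genes had a count. Levels are given as CPM, the counts on a gene scaled to a common library size, with library sizes scaled by edgeR's TMM factors. Fold changes, standard errors and p-values come from the edgeR quasi-likelihood test over 13001 genes that passed a filter on low counts, and adjusted p-values were computed over all of them. In these libraries the targeted gene went against its label. Elavl1 had 377 and 347 counts in the control mice and 541 and 648 counts in the mice labelled HuRhKO, which was 28.4 and 25.9 CPM against 37.7 and 34.4 CPM. Both libraries labelled HuRhKO were thus above both controls (log2 fold change 0.41 ± 0.14 SE, unadjusted p = 0.016 and adjusted p = 0.55 by edgeR). The paper itself reports significantly lower HuR mRNA and protein in livers of HuRhKO mice, with the deletion in hepatocytes seen by immunofluorescence. Whether the mice sequenced here were among those it measured is not given in the sources used here. Counts over the whole gene include exons outside any floxed part and RNA of cells without Cre, and 204 exon bases of Elavl1 are shared with Ccl25 on the opposite strand. Ccl25 had 46 and 57 counts in the controls and 33 and 50 counts in the mice labelled HuRhKO. Its log2 fold change was -0.63. Why Elavl1 was higher, and the part of Ccl25 reads in its value, were not tested. Because Elavl1 was not lower in them, every direction below is that of the libraries labelled HuRhKO. The hepatocyte markers (Alb, Ttr, Apoa1, Hnf4a, Cps1 and Serpina1a) were detected in every library, with a summed level between 59622 and 67339 CPM.

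All 9 S1P genes passed the filter on low counts, and 0 of them differed between the groups at an adjusted p-value under 0.05 by edgeR, where 0.0231% of all genes tested (3 genes) did. The same count was 0 with DESeq2, which called 0.654% of all genes, and with limma-voom, which called 0.0154%. At the threshold the study used for its RNA-seq, which asks for 1.8-fold or more and p under 0.05 without adjustment, 0 of the 9 passed, against 2.12% of all genes. S1pr2 was the only member with an unadjusted p-value under 0.05 and was higher in the libraries labelled HuRhKO, as were 4.04% of all genes. The groups did not overlap for 2 genes that were higher, S1pr2 and Sgpp1, against 19.3% of all genes, and for 1 gene that was lower, Sgpl1, against 18.8%. With 9 members these shares were close to those of all genes. Fitted changes were above 0 for 7 members and below 0 for 2 (S1pr3 and Sgpl1), with a median log2 fold change of 0.05 beside 0.00197 over all genes. Without scaling for library size all 9 were fitted higher, where the median of all genes was itself 0.31.

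**Figure D1:**
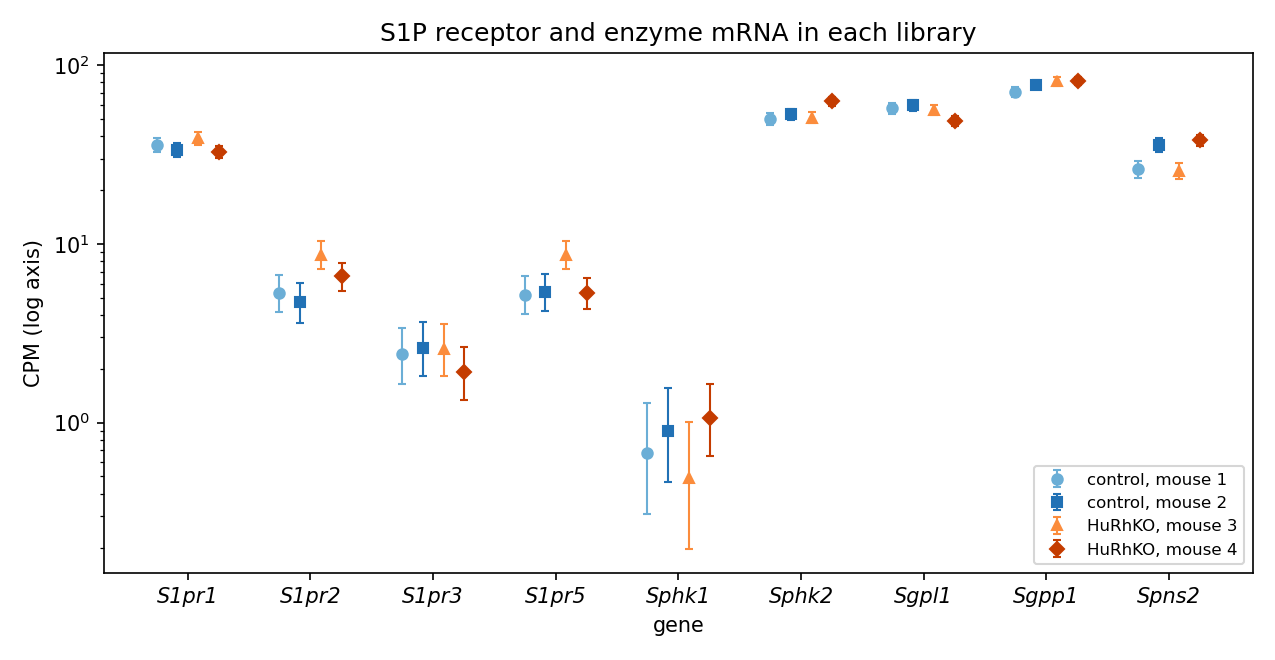
Level of each S1P gene in CPM (log axis) in the 4 libraries, with symbols for mice and bars for exact 95% Poisson intervals of the counts, which cover counting error only. For S1pr2 both libraries labelled HuRhKO (8.72 and 6.58 CPM) lie above both controls (5.34 and 4.70 CPM), while for Sphk2 and S1pr5 a single mouse stands above the other 3.

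Among the receptors, S1pr2 showed the largest fitted change. This receptor couples to several classes of G proteins and responds to conjugated bile acids in hepatocytes. Its gene (ENSMUSG00000043895) lies at chr9:20962361-20976781 on the minus strand (GRCm38). The paper reports significantly higher S1PR2 mRNA and protein in livers of HuRhKO mice on this diet. Counts were 71 and 63 in the controls and 125 and 124 in the mice labelled HuRhKO, or 5.34 and 4.70 CPM against 8.72 and 6.58 CPM. Mouse 3 was the highest and mouse 4 lay between it and the controls, and the groups did not overlap. The means were 5.02 ± 0.452 CPM and 7.65 ± 1.51 CPM (SD, n = 2 each). The fold change was 1.52 (95% interval 1.04 to 2.21, log2 fold change 0.60 ± 0.24 SE), with an adjusted p = 0.62 in the edgeR fit, so the difference did not hold up once all genes were considered. Without mouse 3 the log2 fold change was 0.37, without control mouse 2 it was 0.51, and in both cases, as with the DESeq2 Wald test on all 4 libraries, the unadjusted p-value was no longer under 0.05. Over the alternatives the adjusted p ran from 0.20 to 1.00 (edgeR, DESeq2 and limma-voom).

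S1pr1, the receptor that keeps endothelial junctions tight and directs lymphocytes out of lymphoid tissue, was the most abundant of the 4 receptors. Its gene (ENSMUSG00000045092) lies at chr3:115710433-115715072 on the minus strand. Levels were 35.7 and 33.5 CPM in the controls and 38.9 and 32.6 CPM in the mice labelled HuRhKO. The controls lay inside the range of the other group, and the log2 fold change was 0.05 ± 0.14 (SE, edgeR adjusted p = 0.96). The 95% interval of the fold change ran from 0.822 to 1.30, which does not reach 1.8-fold in either direction.

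S1pr3 is expressed in vascular and stellate cells and is tied to fibrogenic signaling. Its gene (ENSMUSG00000067586) lies at chr13:51408639-51422797 on the plus strand. Levels were 2.41 and 2.61 CPM in the controls and 2.58 and 1.91 CPM in the mice labelled HuRhKO. These came from 32 to 37 counts in a library, the groups overlapped, and the log2 fold change was -0.17 ± 0.34 (SE, edgeR adjusted p = 0.94). Its interval, 0.518 to 1.52 in fold change, still includes a fall of more than 1.8-fold.

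S1pr5, the receptor known for moving natural killer cells between tissues, was not alike in the 2 mice labelled HuRhKO. Its gene (ENSMUSG00000045087) lies at chr9:21242912-21248443 on the minus strand. Levels were 5.19 and 5.38 CPM in the controls, 8.65 CPM in mouse 3 and 5.31 CPM in mouse 4. Only mouse 3 was above the controls, and mouse 4 lay between them. The log2 fold change was 0.39 ± 0.28 (SE, edgeR adjusted p = 0.79). It was -0.01 without mouse 3 and 0.71 without mouse 4, so this value rested on which of the mice was kept. The counts of S1pr3 and S1pr5 include 45 and 51 exon bases that an opposite-strand transcript shares. S1pr2 and S1pr5 lie 266 kb apart on chromosome 9. Of the 16 genes between them 9 were tested, of which 5 were fitted higher and 4 lower, and their median log2 fold change was 0.03. One of these, Icam1, an adhesion molecule for leukocytes that was picked out after its values were seen, had an unadjusted p-value under 0.05 (log2 fold change 0.67, edgeR adjusted p = 0.47).

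**Figure D2:**
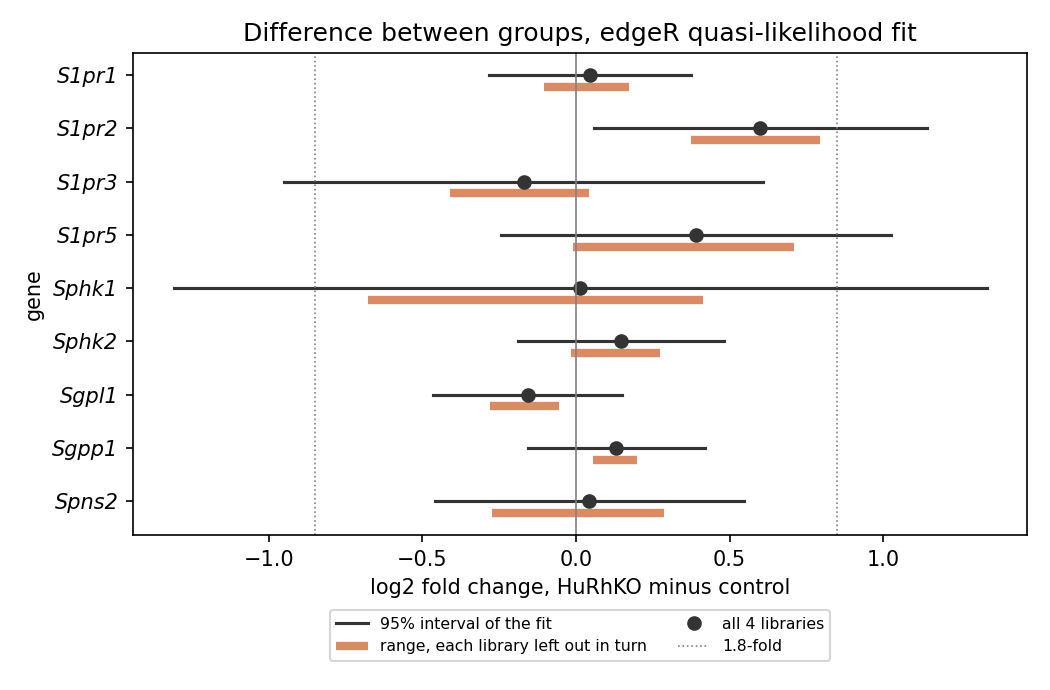
Log2 fold change of each S1P gene (HuRhKO minus control, edgeR quasi-likelihood fit) with its 95% interval as a thin line, and in orange the range of values when each library was left out in turn. The interval of S1pr2 alone excludes 0, the orange ranges of S1pr1, S1pr3, S1pr5, Sphk1, Sphk2 and Spns2 cross 0, and dotted lines mark a 1.8-fold change.

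A share within a library does not depend on how libraries are scaled, so the receptors were also set against each other. Of the counts on the 4 receptors, S1pr2 took 11.0% and 10.2% in the controls and 14.8% and 14.2% in the mice labelled HuRhKO. The exact binomial 95% intervals were 8.68% to 13.7% and 7.91% to 12.8% in the controls and 12.5% to 17.4% and 11.9% to 16.7% in mice 3 and 4, which overlap between the groups. The mean shares were 10.6% ± 0.575 and 14.5% ± 0.440 (SD, n = 2 each), a difference of 3.91 percentage points. The groups did not overlap, and the two-sided exact permutation test gave p = 0.33, the smallest that 2 against 2 libraries allow. S1pr1 took 73.4% and 72.5% of receptor counts in the controls against 66.1% and 70.3%, S1pr3 took 4.95% and 5.65% against 4.38% and 4.12%, and S1pr5 took 10.7% and 11.6% against 14.7% and 11.4%. The shares of S1pr1 and S1pr3 were lower without overlap, each with the same exact permutation p = 0.33, so separation was not particular to S1pr2. Shares of the same total also do not move independently. The ratio of S1pr1 to S1pr2 counts was 6.68 and 7.13 in the controls and 4.46 and 4.95 in the mice labelled HuRhKO. The S1pr2 share depends on transcript length. Per kilobase of exon it was 4.47% and 4.12% in the controls against 6.11% and 5.87%, a difference of 1.69 percentage points between smaller shares.

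**Figure D3:**
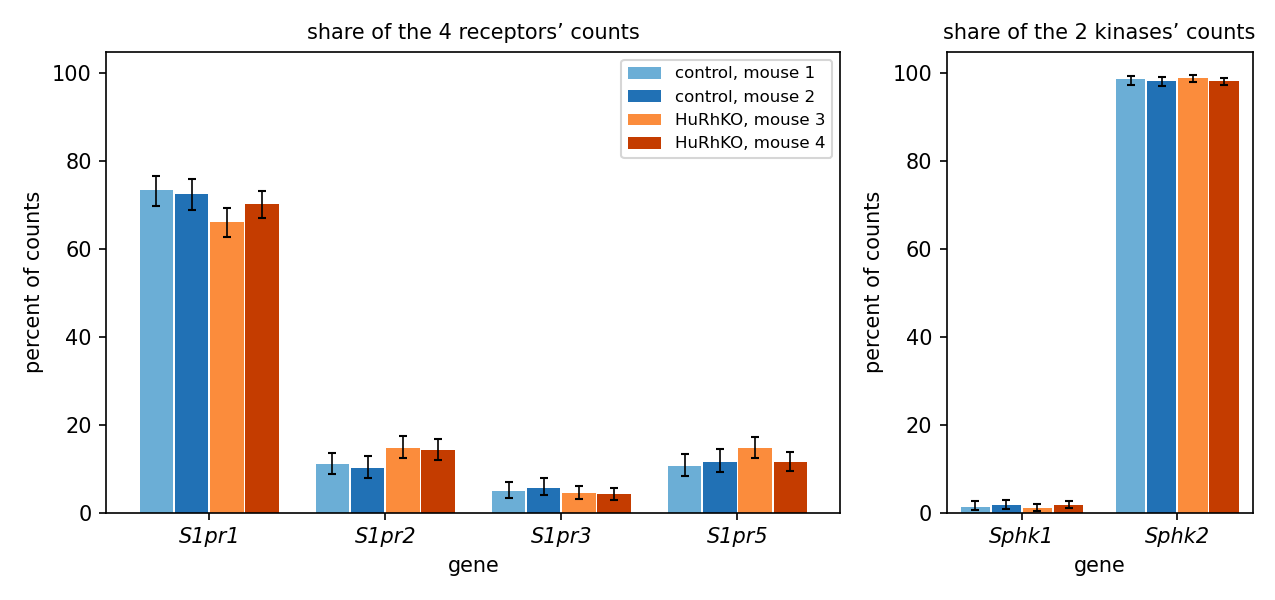
Share of each receptor in the counts of the 4 receptors (left) and of each kinase in the counts of the 2 kinases (right), in percent, with bars for the libraries and exact binomial 95% intervals. S1pr2 takes 10.2% to 11.0% of receptor counts in the controls and 14.2% to 14.8% in the libraries labelled HuRhKO, and Sphk2 takes 98.3% to 99.0% of kinase counts in every library.

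S1P receptors are also made by cells other than hepatocytes, and in bulk tissue fewer cells of a type and less RNA per cell cannot be told apart. The summed level of the 10 endothelial markers was 288 and 254 CPM in the controls and 324 and 290 CPM in the mice labelled HuRhKO. All 10 were fitted higher, as were 6544 of the 13001 genes tested. The log2 fold changes of the 10 ran from 0.06 to 0.33, and 0 of 10 had an unadjusted edgeR p-value under 0.05. The sum of the 8 macrophage markers was 167 and 173 CPM against 195 and 180 CPM, and 5 of the 8 were fitted higher. The 3 fitted lower were Adgre1, Csf1r and Marco (log2 fold changes -0.20, -0.01 and -0.92). The sum of the 8 stellate and mesenchymal markers was 206 and 193 CPM against 205 and 265 CPM, with 6 of the 8 fitted higher. Of these, the collagens Col1a1 and Col3a1 (log2 fold changes 0.63 and 0.59) had an unadjusted edgeR p-value under 0.05. The 2 fitted lower were Acta2 and Des (log2 fold changes -0.83 and -0.30), neither with such a p-value. Acta2 was at 20.7 CPM in control mouse 1 and at most 9.4 CPM in each other mouse. The 4 erythroid markers summed to 275 and 329 CPM against 370 and 530 CPM, and all 4 were fitted higher, 3 of them (Hbb-bs, Hbb-bt and Alas2) with an unadjusted edgeR p-value under 0.05, as had 4.04% of all genes in this direction. S1pr2 was 1.86% and 1.85% of the endothelial sum in the controls and 2.69% and 2.27% in the mice labelled HuRhKO, and it was 3.20% and 2.72% of the macrophage sum against 4.47% and 3.66%. Against the stellate sum it was 2.59% and 2.44% in the controls, 4.24% in mouse 3 and 2.49% in mouse 4, where the groups overlapped. The 8 T and NK cell markers summed to between 2.63 and 3.81 CPM in the 4 libraries. The 5 neutrophil markers summed to 1.88 and 2.24 CPM in the controls against 1.74 and 1.54 CPM, lower without overlap, as were 18.8% of all genes. Csf3r was the largest part of each sum, at 1.51 and 1.64 CPM against 0.837 and 1.06 CPM. Only Csf3r of these markers passed the filter on low counts (log2 fold change -0.71). S100a8 went the other way, with 1 and 1 counts in the controls against 3 and 5. S100a9 had 4 and 5 counts against 10 and 3, Retnlg had 0 and 2 against 0 and 1, and Ly6g was at 0 in all 4 libraries. Cholangiocyte markers summed to between 27.5 and 52.8 CPM. Most of each sum was Spp1, at 31.5 and 22.3 CPM in the controls against 34.8 and 41.9 CPM. Of the 4 markers tested, Spp1 and Sox9 were fitted higher (log2 fold changes 0.51 and 0.11). Krt19 and Epcam went the other way (log2 fold changes -2.38 and -0.56). Only Spp1 had an unadjusted edgeR p-value under 0.05. The bile duct keratin Krt19 was at 12.2 CPM in control mouse 1 and at most 1.81 CPM in the other 3. B cell markers summed to between 1.58 and 5.90 CPM, and platelet and megakaryocyte markers to between 3.24 and 4.26 CPM. The part of these cells in the receptor values was not tested.

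The kinases were unequal in level and showed no difference that exceeded the spread between mice. Sphk2 (ENSMUSG00000057342) lies at chr7:45709467-45718002 on the minus strand. It had 661 and 712 counts in the controls and 729 and 1185 counts in the mice labelled HuRhKO, or 49.7 and 53.2 CPM against 50.9 and 62.9 CPM. Only mouse 4 was above both controls, while mouse 3 lay between them. The fold change was 1.11 (95% interval 0.876 to 1.40, log2 fold change 0.15 ± 0.15 SE, edgeR adjusted p = 0.86). The interval thus includes no change. Without mouse 4 the log2 fold change was -0.02. The paper's own SphK2 result concerns protein, which was lower in the nucleus without a significant change in total, and mRNA counts do not measure it.

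Sphk2 shares 539 exon bases with Dbp, a clock-controlled transcription factor, and 373 exon bases with the ribosomal protein gene Rpl18, both on the opposite strand. Whether the counting used strand is not given in the sources used here, so reads in the shared bases could belong to either gene. Dbp had 2623 and 3464 counts in the controls and 3943 and 5011 in the mice labelled HuRhKO (log2 fold change 0.25 ± 0.16 SE). Rpl18 had 2446 and 2812 counts against 3054 and 4270 (log2 fold change 0.16 ± 0.14 SE). Both neighbours held more counts than Sphk2 in every library, and both were higher in the libraries labelled HuRhKO in CPM. The part of their reads in the Sphk2 value was not tested.

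Sphk1 (ENSMUSG00000061878), the cytoplasmic kinase that growth factors and cytokines induce, lies at chr11:116530925-116536674 on the plus strand. It had 9 and 12 counts in the controls and 7 and 20 counts in the mice labelled HuRhKO, or 0.677 and 0.896 CPM against 0.488 and 1.06 CPM. The controls lay between mice 3 and 4. At this depth the interval of its fold change ran from 0.403 to 2.53 (edgeR adjusted p = 1.00), which includes 2-fold changes in both directions. Sphk2 took 98.7% and 98.3% of the kinase counts in the controls and 99.0% and 98.3% in the mice labelled HuRhKO, a difference of 0.195 percentage points (two-sided exact permutation p = 1). The ratio of Sphk2 to Sphk1 counts was 73.4 and 59.3 in the controls and 104 and 59.3 in mice 3 and 4. Sphk1 shares 192 exon bases with an opposite-strand transcript that had 0 counts in every library.

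The enzymes that remove S1P were among the best measured members. Sgpp1 was higher and Sgpl1 lower without overlap, as were 19.3% and 18.8% of all genes. Sgpl1 (ENSMUSG00000020097), the lyase of the endoplasmic reticulum, lies at chr10:61098642-61147703 on the minus strand. Its levels were 57.4 and 59.5 CPM in the controls and 56.2 and 48.7 CPM in the mice labelled HuRhKO. Mouse 3 lay just below the controls and mouse 4 further down. The log2 fold change was -0.16 ± 0.13 (SE, edgeR adjusted p = 0.84).

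Sgpp1 (ENSMUSG00000021054), the phosphatase that returns S1P to sphingosine, lies at chr12:75714249-75735729 on the minus strand. Its levels were 71.2 and 77.8 CPM in the controls and 81.5 and 81.7 CPM in the mice labelled HuRhKO. Mice 3 and 4 were alike, and the gap to control mouse 2 was smaller than the gap between the controls. The log2 fold change was 0.13 ± 0.13 (SE, edgeR adjusted p = 0.85). The ratio of Sgpp1 to Sgpl1 counts was 1.24 and 1.31 in the controls and 1.45 and 1.68 in the mice labelled HuRhKO. That this ratio did not overlap follows from the levels of its 2 genes and is not a further result. The ratio of Sphk2 to Sgpl1 was 0.866 and 0.893 against 0.904 and 1.29.

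Spns2 (ENSMUSG00000040447), which exports S1P from endothelial cells, lies at chr11:72451638-72489904 on the minus strand. Its levels were 26.1 and 35.6 CPM in the controls and 25.5 and 37.9 CPM in the mice labelled HuRhKO. Each group held a low and a high mouse, so the spread within groups was larger than the difference between them (log2 fold change 0.04 ± 0.22 SE, edgeR adjusted p = 0.98). As a share of the endothelial marker sum Spns2 was 9.08% and 14.0% in the controls and 7.87% and 13.1% in the mice labelled HuRhKO. It shares 131 exon bases with Mybbp1a on the opposite strand, whose level was between 49.1 and 53.0 CPM.

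Levels can be compared between genes only per length, and here they are CPM per kilobase of annotated exon, as the mean of the 4 libraries. Sgpp1 was highest at 13.8, followed by Sphk2 at 13.0, S1pr1 at 11.5, Sgpl1 at 9.03 and Spns2 at 7.66. These 5 genes lay between the percentiles 70.4 and 80.5 of the genes tested. S1pr5 followed at 2.45, S1pr2 at 0.795, S1pr3 at 0.533 and Sphk1 at 0.164, from percentile 44.5 down to percentile 2.81. The order held in all 4 libraries for S1pr1 over Sgpl1 and for each step from Spns2 down to Sphk1, and in 3 of the 4 for Sgpp1 over Sphk2, Sphk2 over S1pr1 and Sgpl1 over Spns2, so these neighbours were not separated by the spread between mice. With the longest coding transcript in place of all exons, S1pr1 and Sgpl1 changed places. S1pr2 and S1pr5 had nearly equal CPM in the controls, yet S1pr2 has the longer exons and was lower per length.

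**Figure D4:**
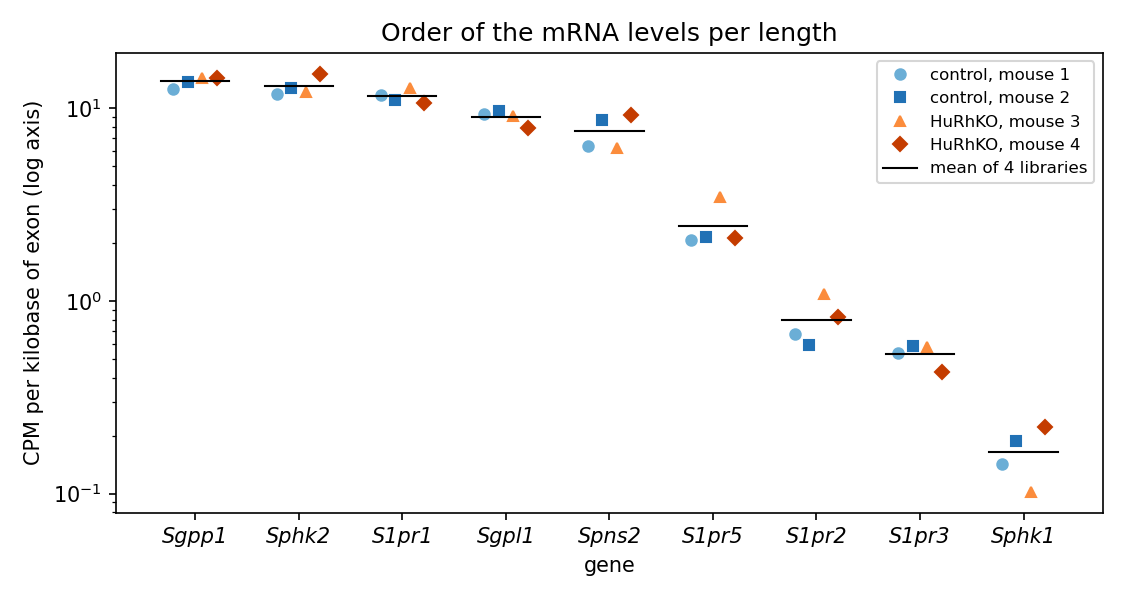
Level of each S1P gene in CPM per kilobase of exon (log axis), ordered by the mean of the 4 libraries (line), with 1 symbol for each mouse. A group of 5 genes from Sgpp1 (13.8) to Spns2 (7.66) stands above S1pr5 (2.45), S1pr2 (0.795), S1pr3 (0.533) and Sphk1 (0.164).

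The patterns of S1pr2 and Sphk2 over the 4 libraries were compared with those of the other genes tested, by the root mean square distance of log2 CPM after centring each gene on its own mean. The genes most like S1pr2 were Rcn1, Plet1 and Gm13436, at distances of 0.0262, 0.0331 and 0.0338. The genes most like Sphk2 were N4bp2l1, Acy1 and Mrps7, at distances of 0.00484, 0.0112 and 0.0130. With 4 libraries many genes can share a pattern, and a gene that varies little, as Sphk2 does, lies near many others.

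The rest of the pathway was followed through 60 other genes in 6 lists, of which 52 passed the filter on low counts. Of these, 26 were fitted higher and 26 lower, and the median log2 fold change was 0.00011, beside 0.00197 over all genes. At an adjusted p-value under 0.05, 0 of the 52 differed by edgeR, and 2 had an unadjusted p-value under 0.05. Over all genes 7.43% had such a p-value. Both also passed the 1.8-fold threshold, Apom higher and Gnai1 lower, where 2.12% of all genes did. A count of 2 among 52 genes was below the first share and close to the second. Not tested for low counts were S1pr4, the receptor of lymphoid cells, with 3 and 12 counts in the controls and 5 and 8 in the mice labelled HuRhKO, the second phosphatase gene Sgpp2 with 13 and 4 against 7 and 9, and Sptlc3, Sptssb, Cers1, Cers3, Acer1 and Ugt8a.

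Apom encodes apolipoprotein M, the carrier of S1P in high density lipoprotein, which is made by hepatocytes. Its levels were 89.3 and 98.4 CPM in the controls and 154 and 194 CPM in the mice labelled HuRhKO. The groups were far apart relative to the spread within them, with a log2 fold change of 0.89 ± 0.15 (SE). The adjusted p was 0.14 by edgeR and 0.00045 by DESeq2, and over all alternatives it ran from 0.00045 to 0.74. Without control mouse 1 or without mouse 4 the log2 fold changes were 0.81 and 0.71, under the 1.8-fold threshold. Per length Apom averaged 132 CPM per kilobase of exon over the 4 libraries, the highest mean of its list, but in both controls Aldh3a2, an aldehyde dehydrogenase that acts after the lyase, was higher (124 and 132 against 88.1 and 97.1), and it was also higher when the longest coding transcript was taken as the length.

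Gnai1 encodes an inhibitory G protein alpha subunit to which S1P receptors couple. Its levels were 5.19 and 3.73 CPM in the controls and 1.47 and 2.07 CPM in the mice labelled HuRhKO. Both mice labelled HuRhKO were below both controls, with a log2 fold change of -1.32 ± 0.33 (SE, edgeR adjusted p = 0.37). Over the alternatives its adjusted p ran from 0.039, in edgeR without the filter on low counts, to 0.85. The related subunits Gnai2 and Gnai3 were at far higher levels, from 67.3 to 123 CPM, and had log2 fold changes of 0.16 and 0.14.

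The sphingolipid lists upstream of S1P had few differences. In de novo ceramide synthesis 13 of 17 genes were tested, 7 fitted higher and 6 lower, with 0 past an unadjusted p of 0.05 by edgeR. Cers2, the ceramide synthase for very long acyl chains and the list's most abundant gene per length, was at 311 CPM in both controls and at 269 and 309 CPM in the mice labelled HuRhKO (log2 fold change -0.10). Of the 4 ceramidases tested, which release sphingosine from ceramide, 2 were fitted higher and 2 lower, and acid ceramidase (Asah1) had a log2 fold change of 0.16. In the sphingomyelin cycle 2 of 7 genes were fitted higher and 5 lower, with acid sphingomyelinase (Smpd1) at 43.8 and 42.2 CPM against 43.3 and 42.5 CPM. Of the 8 genes tested for ceramide kinase and glycosphingolipids, 5 were fitted higher and 3 lower, and B4galt5, a lactosylceramide synthase, had a log2 fold change of -0.14. The median log2 fold changes of these 4 lists lay between -0.08 and 0.03, close to that of all genes.

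**Figure D5:**
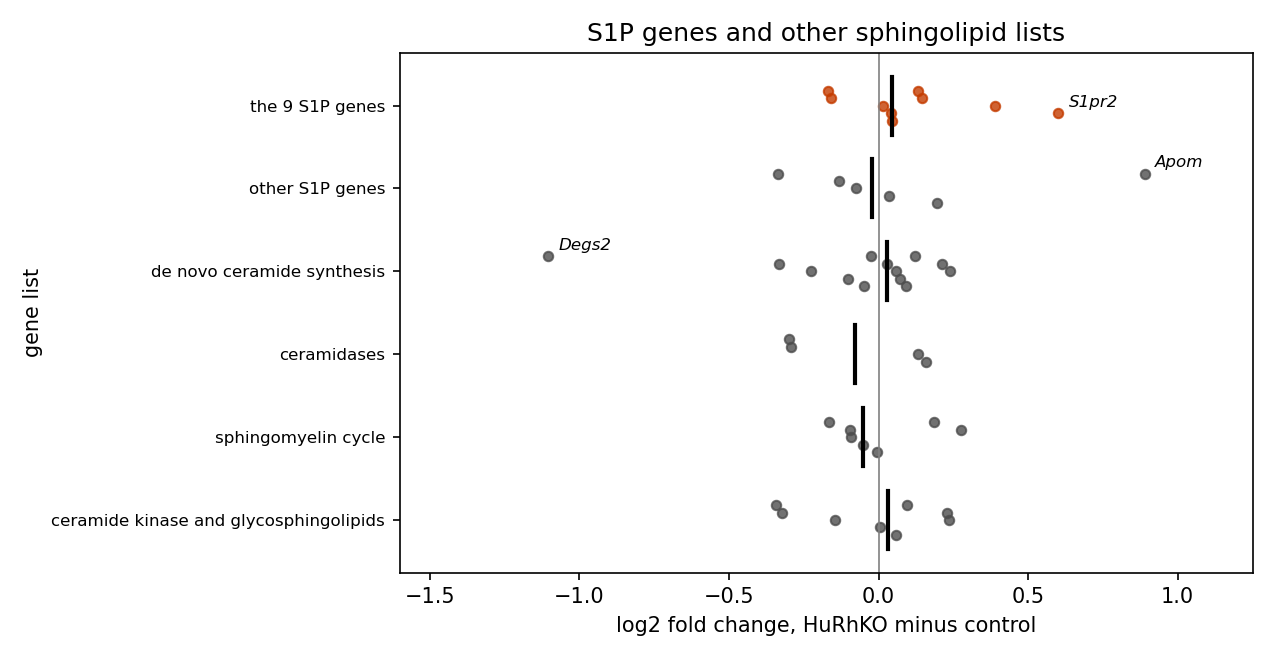
Log2 fold change (HuRhKO minus control) of each tested gene in the 9 S1P genes and in 5 lists of other S1P and sphingolipid genes, 1 point a gene, with the median of each list as a black line and names for genes that differed by at least 1.5-fold. The medians lie near 0 and the genes standing apart are S1pr2 (0.60), Apom (0.89) and Degs2 (-1.11), of which Degs2 did not pass an unadjusted p-value of 0.05 by edgeR.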

How the data were processed

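Total liver RNA of 4 mice was sequenced. The authors deposited a table of raw counts per Ensembl gene, without normalization, and the submitters' processing notes name RSEM and GRCm38. The aligner, the use of strand and tool versions are not given in the sources used here, so reads shared by overlapping genes cannot be assigned. All 4 count columns were matched to mice by name and 0 columns were left out. Symbols and exon positions came from GENCODE M21 (GRCm38), which held 46005 of the 46603 identifiers.

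Counts were filtered with edgeR's filterByExpr (minimum count 10, total 15) and scaled by TMM factors, and 13001 genes were tested with the quasi-likelihood test in edgeR 4.0.16 (R 4.3.3), with Benjamini-Hochberg adjustment. With 2 mice a group, p-values rest on a spread shared across genes. Nothing states that mice came from separate litters. Totals were between 13032095 and 19715577 counts. The Poisson and binomial intervals cover counting error only, while those of fold changes come from the edgeR fit and include the spread between mice. Alternatives were DESeq2 size factors, upper quartile factors, no scaling, no filter, at least 10 counts in every library, DESeq2 1.42.0, limma-voom (limma 3.58.1), the robust fit, and leaving out each library. Shares used exact binomial intervals and exact permutation tests (scipy 1.17.1, python 3.11.15), and figures were drawn with matplotlib 3.10.9. Of the tests, only the edgeR quasi-likelihood test was tried on simulated counts.

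The members and lists were chosen with earlier results of these data known. Named are all members, Elavl1, pathway genes past either threshold or with the highest level per length in their list, and the 3 genes most like S1pr2 and Sphk2. Any other gene named was chosen after its values were seen. The summary of 1 of the pathway lists is not reported here.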

Additional observations from a re-analysis of the deposited data

How the results depend on the processing

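Over the alternatives, 94 of 107 fold changes of the S1P genes kept their direction and their side of an adjusted p of 0.05. In the alternatives that kept all 4 libraries 0 members were called, where 0.0154% (limma-voom) to 1.14% (no scaling) of all genes were. S1pr2 stayed above 0 in all 12 alternatives (0.37 to 0.89), but its unadjusted p-value was not under 0.05 with DESeq2, without control mouse 2 or without mouse 3. Without scaling for library size 1 member (S1pr2) passed the 1.8-fold threshold, against 4.5% of all genes, 7 members had groups that did not overlap, against 47% of all genes, and the log2 fold changes of S1pr3 and Sgpl1 became 0.12 and 0.14. Leaving out each library in turn gave 4 to 8 members without overlap, where 64.8% to 73.6% of all genes did not overlap, and 1 to 3 other pathway genes past the threshold, which 1.93% to 3.73% of all genes passed. It moved the S1pr2 share difference to between 3.51 and 4.32 points and the Sphk2 share difference to between -0.159 and 0.549 points. Per kilobase of exon, where the S1pr2 share was smaller in every library, it differed by 1.69 points. Sphk1, near 0 with all libraries, became -0.00646 without a filter, -0.0101 with DESeq2 and -0.0579 with limma-voom, and it was not tested with a minimum of 10 counts in every library. When each library was left out in turn, the log2 fold changes that changed direction ranged from -0.68 to 0.41 for Sphk1 (also -0.19 without control mouse 1), from -0.27 to 0.29 for Spns2 (also -0.18 without control mouse 1), from -0.10 to 0.17 for S1pr1, from -0.0102 to 0.71 for S1pr5, from -0.41 to 0.0406 for S1pr3 and from -0.0159 to 0.27 for Sphk2. In these fits the lone library of a group was assumed to vary like the other group, and the cause of the changes was not tested. No paired analysis was possible because the groups share no mouse number. With 2 mice a group the exact permutation test cannot give a p under 0.33, and Sphk1 and S1pr3, with 7 to 37 counts a library, could not be measured finely.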
